A study of Mus musculus with 8 samples.

Results

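The 10 genes described here encode LIM-homeodomain transcription factors of spinal neurons: Isl1, Isl2, Lhx1, Lhx2, Lhx3, Lhx4, Lhx5, Lhx9, Lmx1a and Lmx1b. They were chosen by name, as every non-control probe whose gene name on the array equals one of these symbols, which gave 14 probes for 10 of the 28940 genes tested. The 8 arrays measured laser-captured spinal neural tube and paraxial tissue of mouse embryos (strain C57BL/6, E10.5) after conditional loss of Geminin, the replication licensing inhibitor encoded by Gmnn. There were 2 embryos labelled wild type and 2 mutant embryos with the genotype fl/fl; cre/o, and each embryo gave both tissues, so each of the 4 groups held 2 arrays. The driver of cre and the part of Gmnn it removes are not given in the labels, nor is whether the wild-type embryos carried a floxed allele.

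LIM-homeodomain proteins pair a DNA-binding homeodomain with LIM domains that bind partner proteins, above all the bridging cofactors of the Ldb family. Combinations of them mark the classes of neurons that leave the cell cycle along the dorsoventral axis of the spinal cord, and the same genes are used outside it, in sensory ganglia, limb buds and other mesoderm. Isl1 and Isl2 mark motor neurons and sensory neurons, and Lhx3 and Lhx4 mark motor neurons and V2 interneurons. Lhx1 and Lhx5 mark several ventral and dorsal interneuron classes, Lhx2 and Lhx9 mark the dI1 commissural class, Lmx1b marks dI5 interneurons, and Lmx1a marks the roof plate.

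Signals are given as scaled log2 signals, that is, log2 of the processed red-channel signal after each array's 75th percentile was set to a common value. One unit is a doubling, and values of different probes are not comparable with each other. All 10 genes passed the filter, which asked for a signal well above background, as the scanner software judged it, on both arrays of at least 1 group. Of these genes, 8 were well above background on all 8 arrays, Lmx1a on 7 and Lhx5 on 4. Lhx1 and Lmx1b had 2 probes each, Lhx9 had 3 and the other genes had 1. The brightest probe stood for a gene.

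The probes below are shown because the paraxial results on Lmx1b rest on the agreement of its probes. Those on Lhx9, and the size of those on Lhx1, depend on the probe used. Each is 60 bases long, is written 5′ to 3′ as deposited, and lies on the minus strand of mouse build mm9. The Lhx1 probe lies at chr11:84335442-84335594, and its 60 bases are spread over 153 bases of genome. The Lhx9 probe lies at chr1:140729280-140729339, and the Lmx1b probes lie at chr2:33495011-33495070 and chr2:33420253-33420312. Exons and untranslated regions of the probes are not given, since no mm9 gene annotation was used.
Lhx1 A_55_P2231244: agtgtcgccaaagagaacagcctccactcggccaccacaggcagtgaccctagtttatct
Lhx9 A_55_P2117853: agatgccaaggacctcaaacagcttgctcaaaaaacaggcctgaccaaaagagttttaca
Lmx1b A_55_P2146295: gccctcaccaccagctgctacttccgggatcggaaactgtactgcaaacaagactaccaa
Lmx1b A_55_P2146297: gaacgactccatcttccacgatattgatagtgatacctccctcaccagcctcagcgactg

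Across the series, the 75th percentile of the signal ran from 3164 to 6361, and between 71.8% and 78.1% of spots were well above background on an array. That share was 71.8% to 74.2% on mutant arrays and 73.7% to 78.1% on wild-type arrays. The captured tissues carried their markers. Of 11 neural progenitor genes 10 were higher in neural tube over both genotypes, as were 5 of 6 floor plate genes, while 8 of 11 somite genes were lower. Genes of the neural lists were also detected in the captured paraxial tissue. All 17 measured general neuron genes and all 11 neural progenitor genes were well above background on every paraxial array. That was the common case: of the 28940 genes tested, 25639 outside the 10 were well above background on all 8 arrays. Whether this signal came from neural cells was not tested. Gmnn itself was 12.37 and 12.23 in wild-type neural tube, 12.10 and 11.80 in mutant neural tube, 12.20 and 11.88 in wild-type paraxial tissue and 11.41 and 11.40 in mutant paraxial tissue. It was lower on both mutant arrays than on both wild-type arrays of each tissue, and neither difference passed the test (-0.35 ± 0.25 and -0.64 ± 0.25, log2 ± SE; limma adjusted p = 0.924 and 0.997). Such a separation was shown by 15.7% of all genes in neural tube and by 15.2% in paraxial tissue.

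The comparison of neural tube with paraxial tissue asks which of these neuronal factors were concentrated in the captured neural tube. Lhx3, Lhx4, Lhx5 and Isl2 were higher in neural tube over both genotypes, by 1.52 to 3.08 on the log2 scale, and none of the 10 genes was called lower. These 4 of 10 had a limma p below 0.05 after Benjamini-Hochberg adjustment, where 11.9% of all genes tested did, with 5.97% higher and 5.97% lower. Of the 4, Lhx5 passed the filter on dim probes only through wild-type neural tube, where it was high. The filter itself thus favoured its call, which is no independent sign of a tissue difference. The median difference over the 10 genes was 1.40, against -0.02 over all genes. Within wild type alone 0 of 10 passed (2.43% of all genes did; 6 of 10 had an unadjusted p below 0.05, as did 17.8% of all genes), and within mutants 4 of 10 passed (5.81% of all genes did). The tissues of 1 embryo were treated as linked in this fit. Without that replicate block 1 of 10 was called over both genotypes, and with the embryo as a fixed replicate block 2 were. All tests rest on 2 embryos per genotype, and an exact permutation test of 2 against 2 values could not go below 0.333.

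**Figure D1:**
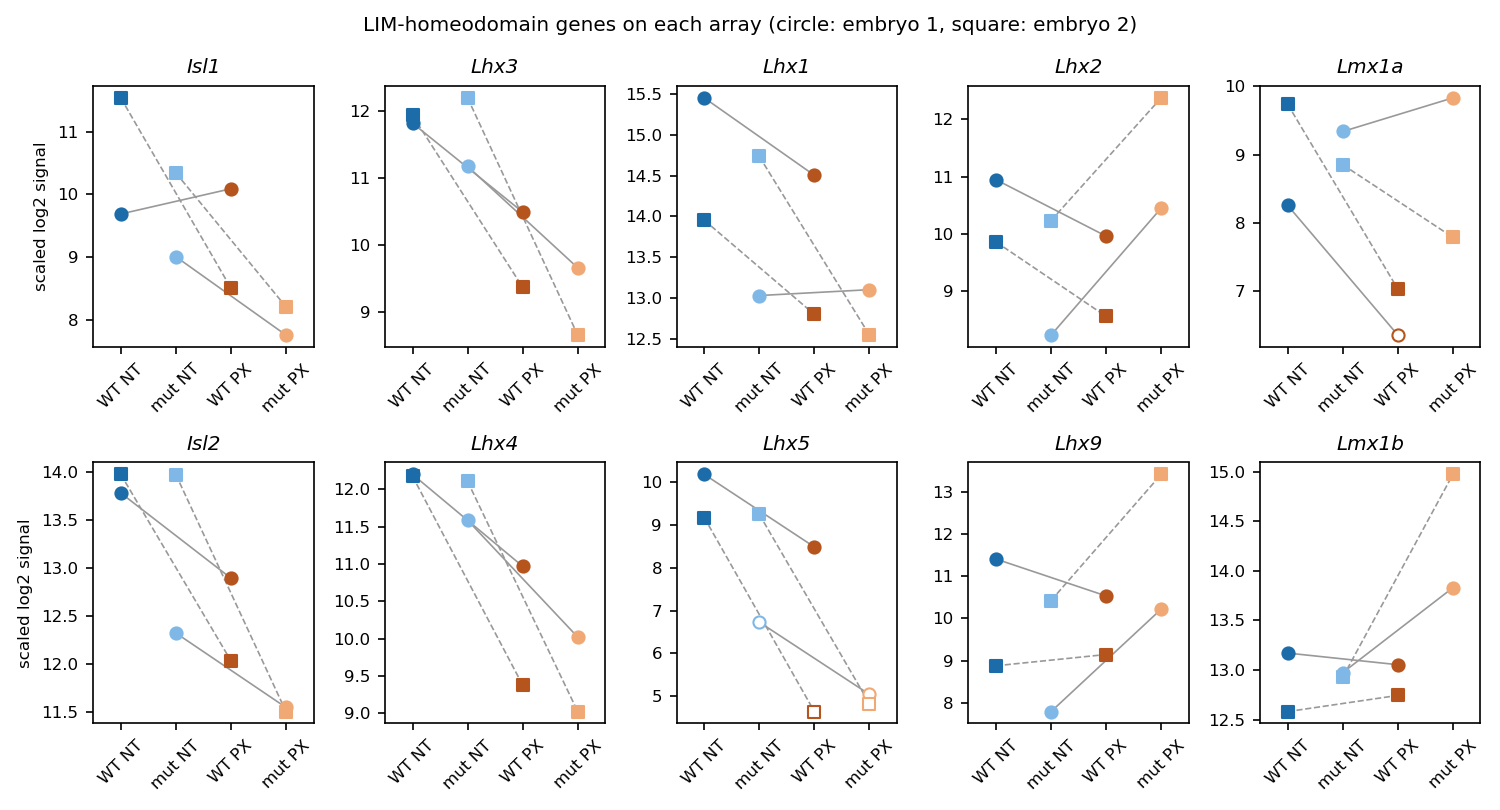
Scaled log2 signal (y axis) of each LIM-homeodomain gene in the 4 groups (WT, wild type; mut, mutant; NT, neural tube; PX, paraxial tissue); lines join the tissues of 1 embryo, circles are embryo 1, squares embryo 2, and open markers are not well above background. Each panel has its own axis; all 4 neural tube points lie above all 4 paraxial points for Lhx3 and Lhx4, while the mutant paraxial points of Lhx2 and Lmx1b lie above every wild-type paraxial point.

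Lhx3, which with Isl1 specifies motor neurons and without it V2a interneurons, was 11.82 and 11.93 in wild-type neural tube, 11.17 and 12.19 in mutant neural tube, 10.49 and 9.37 in wild-type paraxial tissue and 9.66 and 8.66 in mutant paraxial tissue. All 4 neural tube arrays lay above all 4 paraxial arrays. The difference was 2.23 ± 0.34 over both genotypes (log2 ± SE; limma adjusted p = 0.00839), 1.94 ± 0.48 in wild type (limma adjusted p = 0.0926) and 2.52 ± 0.48 in mutants (limma adjusted p = 0.0320).

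Lhx4, the close paralogue of Lhx3 with the same neuronal classes, was 12.20 and 12.17 in wild-type neural tube and 11.58 and 12.11 in mutant neural tube. In paraxial tissue it was 10.97 and 9.38 in wild type and 10.02 and 9.02 in mutants. The groups again did not overlap, and such a separation of all 4 neural tube arrays above all 4 paraxial arrays was seen for 2 of the 10 genes and for 4.41% of all genes. Lhx4 was higher in neural tube by 2.17 ± 0.33 over both genotypes (limma adjusted p = 0.00832), by 2.01 ± 0.46 in wild type (limma adjusted p = 0.0787) and by 2.32 ± 0.46 in mutants (limma adjusted p = 0.0364). Lhx3 and Lhx4 followed each other over the 8 arrays (Pearson r = 0.988, a description over arrays that share embryos and tissues). Both calls over both genotypes were lost without the second wild-type embryo (limma adjusted p = 0.0981 for Lhx3 and 0.0705 for Lhx4) and without the second mutant embryo (0.0585 and 0.0811). The Lhx3 call was also lost without the second wild-type neural tube array (limma adjusted p = 0.0512) and the Lhx4 call without the replicate block (limma adjusted p = 0.0521).

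Isl2, which acts in motor neurons and in sensory ganglia, was 13.78 and 13.98 in wild-type neural tube, 12.32 and 13.98 in mutant neural tube, 12.89 and 12.03 in wild-type paraxial tissue and 11.54 and 11.50 in mutant paraxial tissue. Within each genotype both neural tube arrays lay above both paraxial arrays, while across genotypes the first mutant neural tube array lay below the first wild-type paraxial array. Over both genotypes Isl2 was higher in neural tube by 1.52 ± 0.31 (limma adjusted p = 0.0223), and the call was lost without the replicate block (limma adjusted p = 0.114) and without either wild-type embryo or the second mutant embryo (0.0671, 0.202 and 0.104). Leaving out 1 array gave a limma adjusted p of 0.0105 to 0.110, above 0.05 without either second wild-type array or the second mutant paraxial array.

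Isl1, required for the formation of motor neurons and also present in dorsal root ganglia and pharyngeal mesoderm, was printed as 10 spots per array, with a spot-to-spot SD of 0.071 to 0.290. Its signal was 9.69 and 11.53 in wild-type neural tube, 9.01 and 10.34 in mutant neural tube, 10.09 and 8.51 in wild-type paraxial tissue and 7.77 and 8.22 in mutant paraxial tissue. The first wild-type embryo ran against the others, with neural tube below paraxial tissue by 0.40 where the second was above it by 3.02. The difference over both genotypes was 1.50 ± 0.50 and did not pass (limma adjusted p = 0.107); without the first wild-type embryo it was 2.35 and passed (limma adjusted p = 0.0208), as it did without either array of that embryo (0.0223 and 0.0203).

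The motor neuron list, chosen like the others with earlier results of these data known, went the same way: 6 of 10 genes were higher in neural tube over both genotypes and 0 lower, with a median of 1.84. Olig2, the progenitor factor of motor neurons, was higher by 2.85 ± 0.38 (limma adjusted p = 0.00584) and Nkx6-1 by 2.23 ± 0.20 (limma adjusted p = 0.00245). Chat, which makes acetylcholine and was well above background on 1 of 4 paraxial arrays, was at least 2.69-fold higher in neural tube within mutants (limma adjusted p = 0.0246). Over both genotypes Mnx1, a determinant of motor neuron identity that was not well above background on any paraxial array, was at least 3.67-fold higher. On the first mutant neural tube array Mnx1 was itself not well above background, so this is not a strict bound. Mnx1 passed the filter on dim probes only through wild-type neural tube, and Chat only through neural tube of both genotypes. The filter thus favoured their higher neural tube values, and neither is an independent sign of a tissue difference. In the V2 interneuron list 3 of 7 genes were higher and 0 lower, among them Foxn4, a progenitor factor, by 1.83 ± 0.27 (limma adjusted p = 0.00818). Sensory ganglion genes did not follow a single direction: 1 of 9 was higher in neural tube (Neurog1, by 1.76 ± 0.32) and 2 were lower, among them Sox10 (-1.72 ± 0.38). The sensory ganglion genes stood highest on the first wild-type paraxial array (mean deviation 1.05 from the 8-array mean, against -0.09 on the second), the array on which Isl1 was also highest among paraxial arrays. Its part in the result was not tested. Of heart and pharyngeal mesoderm genes 3 of 7 were measured, and 0 were higher and 2 lower in neural tube (Tbx1, -1.85 ± 0.35, and Foxf1, -1.56 ± 0.39).

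Lhx5, a marker of dorsal and ventral interneurons, was well above background on 4 of the 8 arrays. Its signal was 10.18 and 9.17 in wild-type neural tube, 6.73 and 9.25 in mutant neural tube, 8.49 and 4.64 in wild-type paraxial tissue and 5.04 and 4.83 in mutant paraxial tissue. The values 6.73, 4.64, 5.04 and 4.83 were not well above background. Over both genotypes the difference was 3.08 ± 0.65 (limma adjusted p = 0.0254) and 1.18 after normexp background correction (limma adjusted p = 0.00558), and its size rests on background signal on 3 of 4 paraxial arrays. In mutants, where both paraxial arrays were at background, neural tube was at least 2.62-fold higher (limma adjusted p = 0.115). An "at least" value sets the brighter group against the lowest signal that counted as well above background. It is not a strict bound where the brighter group holds a value at background, as here (6.73) and for Mnx1 and Atoh1. The call was lost without the replicate block (limma adjusted p = 0.169), without the filter on dim probes (0.0528), and without the second wild-type or either mutant embryo (0.134, 0.0587 and 0.175). Leaving out 1 array gave a limma adjusted p of 0.0108 to 0.126, above 0.05 for 5 of the 8 arrays.

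Lhx1, expressed with Lhx5 in interneurons and on its own in lateral motor neurons and the nephric duct, was 15.45 and 13.96 in wild-type neural tube, 13.03 and 14.73 in mutant neural tube, 14.50 and 12.80 in wild-type paraxial tissue and 13.10 and 12.55 in mutant paraxial tissue. Neural tube exceeded paraxial tissue in 3 of 4 embryos (by 0.95, 1.15 and 2.19) and was 0.07 below it in the first mutant embryo, a difference of 1.05 ± 0.39 that did not pass (limma adjusted p = 0.143). The second Lhx1 probe, A_52_P652336, gave the same sign and a difference of 1.79. Of 4 measured V0 and V1 interneuron genes, 2 were higher in neural tube: Dbx1 by 1.95 ± 0.23 (limma adjusted p = 0.00418) and Dbx2 by 3.25 ± 0.49 (limma adjusted p = 0.00807), both progenitor factors. In the dI4 and dI6 list 3 of 6 were higher and 0 lower, with Ptf1a, the determinant of dorsal inhibitory neurons, higher by 2.37 ± 0.50 (limma adjusted p = 0.0261). Intermediate mesoderm genes, which mark the tissue of the nephric duct, were lower in neural tube for 2 of 7 (Osr1, -2.59 ± 0.35, and Wt1, -3.07 ± 0.51).

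**Figure D2:**
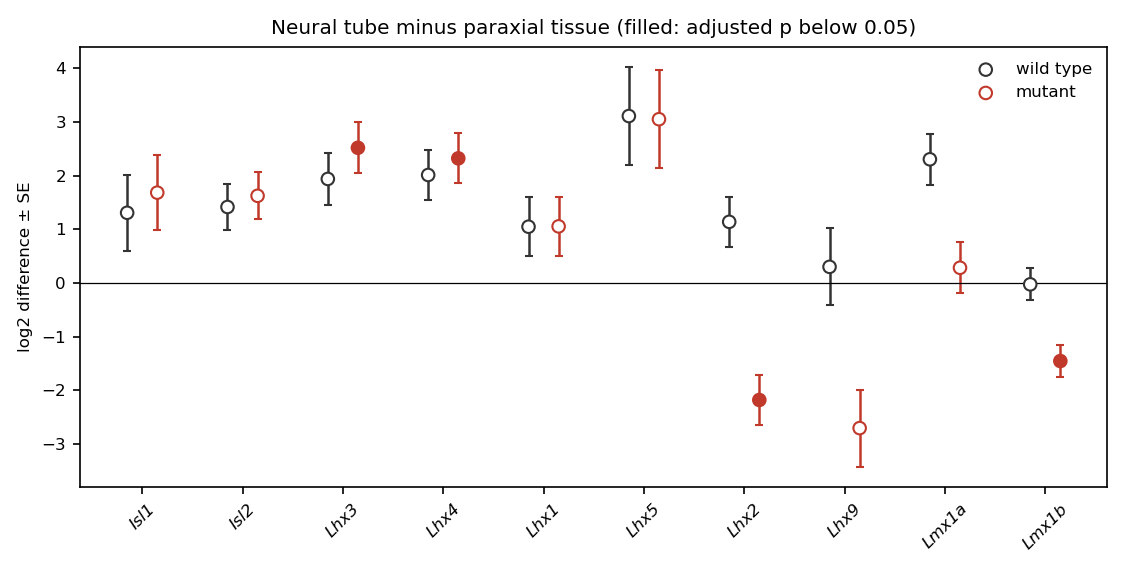
Difference of neural tube minus paraxial tissue (log2, y axis) with its standard error from limma, in wild type and in mutants; filled points passed an adjusted p of 0.05. Lhx3 and Lhx4 were called higher and Lhx2 and Lmx1b lower in mutants, and no wild-type difference was called.

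Lhx2, a selector of dI1 neurons that is also active in limb bud mesenchyme, was 10.95 and 9.86 in wild-type neural tube, 8.23 and 10.23 in mutant neural tube, 9.96 and 8.56 in wild-type paraxial tissue and 10.45 and 12.37 in mutant paraxial tissue. Neural tube stood above paraxial tissue in both wild-type embryos (by 0.99 and 1.30) and below it in both mutant embryos (-2.22 and -2.14). In mutants Lhx2 was lower in neural tube by a log2 difference of -2.18 ± 0.46 (limma adjusted p = 0.0437), and in wild type the difference of 1.14 ± 0.46 did not pass (limma adjusted p = 0.264). The test of the difference between genotypes, -3.32 ± 0.66, had an unadjusted p of 0.0015 and did not pass over all genes (limma adjusted p = 0.649).

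Lmx1b, which acts in dI5 neurons and in the dorsal mesenchyme of the limb bud, was 13.17 and 12.58 in wild-type neural tube, 12.97 and 12.93 in mutant neural tube, 13.05 and 12.74 in wild-type paraxial tissue and 13.83 and 14.97 in mutant paraxial tissue. Both mutant paraxial arrays lay above the other 6 arrays. In mutants Lmx1b was lower in neural tube by a log2 difference of -1.45 ± 0.30 (limma adjusted p = 0.0399), while in wild type the tissues differed by -0.02 ± 0.30. The second Lmx1b probe gave -1.89 in mutants and -0.01 in wild type.

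Among mutants, 2 of the 10 genes were thus called higher in neural tube and 2 lower, against 2.67% and 3.13% of all genes. The 4 mutant calls were less firm than those over both genotypes: all 4 were lost without the replicate block (0 of 10 called) and without the filter on dim probes, 1 was called with the replicate number as a further replicate block, and leaving out single arrays or embryos gave 0 to 7 calls.

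Lhx9, the dI1 partner of Lhx2, was 11.40 and 8.88 in wild-type neural tube, 7.80 and 10.42 in mutant neural tube, 10.53 and 9.15 in wild-type paraxial tissue and 10.22 and 13.41 in mutant paraxial tissue. Every pair of groups overlapped. Its log2 difference in mutants was -2.70 ± 0.72 (limma adjusted p = 0.0829), negative in both mutant embryos (-2.42 and -2.98). Its probes disagreed in size: A_55_P2111264, well above background on all 8 arrays, gave -0.47 in mutants, and A_55_P2111267 stayed at background on all 8. Lhx2 and Lhx9 followed each other over the 8 arrays (Pearson r = 0.941, a description).

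Lmx1a, which specifies the roof plate, was 8.26 and 9.74 in wild-type neural tube, 9.34 and 8.85 in mutant neural tube, 6.35 and 7.03 in wild-type paraxial tissue and 9.83 and 7.79 in mutant paraxial tissue, the value 6.35 not being well above background. Both wild-type paraxial arrays lay below the other 6 arrays. Neural tube was higher by 2.31 ± 0.48 in wild type (limma adjusted p = 0.0602) and by 0.29 ± 0.48 in mutants (limma adjusted p = 0.819). Over both genotypes the difference of 1.30 ± 0.34 missed the threshold (limma adjusted p = 0.0528) and passed it under 3 of the planned settings that kept all arrays, namely median scaling, the mean of a gene's probes and trended robust moderation. After normexp background correction it was 0.41 over both genotypes and 0.88 in wild type. It also passed without the first mutant paraxial array (limma adjusted p = 0.0173) and without the first mutant embryo (0.0493).

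Lists of neighbouring dorsal classes were read beside these genes. For dI1, Atoh1, the progenitor factor of the class, was not well above background on any paraxial array. It was at least 3.11-fold higher in neural tube (limma adjusted p = 0.0509). Atoh1 passed the filter on dim probes only through wild-type neural tube, which favoured this direction. Barhl1, a dI1 factor, differed by -0.14 ± 0.20. For dI3 and dI5, 1 of 6 genes was called. Roof plate genes were called higher for 3 of 8 and lower for 1. Among them Wnt1, a roof plate signal, was higher by 0.82 ± 0.11 (limma adjusted p = 0.00605), Wnt3a by at least 1.59-fold, and Rspo3, a Wnt enhancer, differed by -1.33 ± 0.21 (limma adjusted p = 0.0101).

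Of 9 measured cofactor genes 1 was called higher and 2 lower in neural tube, with a median of -0.20. Ldb2, one of the bridging proteins that LIM-homeodomain factors need, was 8.23 and 9.32 in wild-type neural tube, 8.79 and 8.39 in mutant neural tube, 9.78 and 10.58 in wild-type paraxial tissue and 10.87 and 10.67 in mutant paraxial tissue. All 4 paraxial arrays lay above all 4 neural tube arrays, and the difference was -1.80 ± 0.17 (limma adjusted p = 0.00250). Lmo4, a LIM-only protein that competes for Ldb proteins, differed by -0.57 ± 0.12 (limma adjusted p = 0.0235), and Lmo1, of the same family, was higher in neural tube by 0.95 ± 0.22 (limma adjusted p = 0.0374). Lhx6, the measured gene of the 2 other LIM-homeodomain genes listed, which is best known from forebrain interneurons, differed by -0.22 ± 0.14 (limma adjusted p = 0.375).

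The comparison of mutant with wild-type embryos asks what the loss of Geminin did to these genes in each tissue. In neural tube the mutant values were lower for 8 of 10 genes and higher for 2, with a median of -0.78 against -0.01 over all genes, and none passed. In limma 0 of 10 passed the adjusted threshold and 0 had an unadjusted p below 0.05. Over all 28940 genes 0% passed the adjusted and 3.58% the unadjusted threshold, and 51.6% of all genes were lower. Isl1 differed by -0.94 ± 1.12, Isl2 by -0.73 ± 0.69, Lhx1 by -0.82 ± 0.88, Lhx5 by -1.69 ± 1.45 and Lhx2 by -1.17 ± 0.73. In bulk tissue such as this, fewer cells of a type and less RNA per cell cannot be told apart.

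Among the genes with lower means, the mutant embryos differed. For Isl1, Isl2, Lhx1, Lhx2, Lhx3, Lhx4, Lhx5 and Lhx9 the first mutant embryo was the lowest of the 4 neural tube arrays, while the second lay within or above the wild-type range for these genes other than Lhx4. Of the 10 genes only Lhx4 had both mutant values below both wild-type values (-0.34 ± 0.73), a separation that 15.7% of all genes showed. Averaged over Isl1, Isl2, Lhx1, Lhx3, Lhx4 and Lhx5, the deviation from the 8-array mean was 1.39 and 1.32 in wild-type neural tube and -0.16 and 1.30 in mutant neural tube. On the first mutant array this mean includes the Lhx5 value of 6.73, which was not well above background. General neuron genes deviated alike, by 0.86 and 0.66 in wild type and by -0.18 and 0.78 in mutants. Of these 17 genes 14 were lower in mutant neural tube (median -0.48) and 0 were called, as with Dcx, a microtubule protein of young neurons (-1.31 ± 0.92), and Stmn4 (-0.74 ± 0.47). Surface ectoderm genes were higher in mutant neural tube for 9 of 10 (median 0.79, 0 called), with deviations of -0.72 and -0.57 in wild type and 0.22 and -0.14 in mutants, highest on the first mutant array. The part of these lists in the result was not tested. Without the first mutant neural tube array the difference became 0.11 for Isl2, 0.20 for Lhx1, 0.62 for Lhx3 and 0.22 for Lhx4, and it remained negative for Isl1, Lhx2, Lhx5 and Lhx9.

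**Figure D3:**
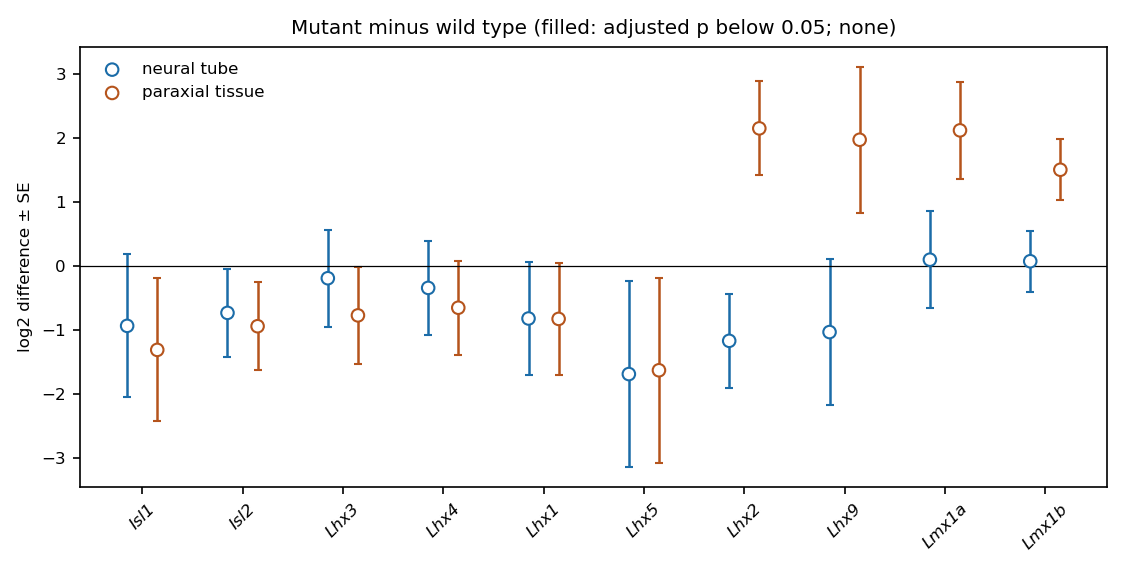
Difference of mutant minus wild type (log2, y axis) with its standard error from limma for each gene, in neural tube and in paraxial tissue; no point is filled because no difference passed an adjusted p of 0.05. In paraxial tissue Lhx2, Lhx9, Lmx1a and Lmx1b lie between 1.50 and 2.15, and the other 6 genes lie below 0, Lhx5 with both mutant arrays at background.

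In paraxial tissue 4 genes had higher and 6 had lower mutant means. Lhx2 (2.15 ± 0.73), Lmx1a (2.12 ± 0.76), Lhx9 (1.97 ± 1.14) and Lmx1b (1.50 ± 0.47) were the higher ones. Isl1, Isl2, Lhx1, Lhx3 and Lhx4 were lower by log2 differences from -0.65 to -1.31, and Lhx5 was the sixth lower mean, where 47.6% of all genes were lower. Lhx5 was well above background on 1 of the 4 paraxial arrays, the first wild-type one, so that its means (6.56 and 4.94) give no measured difference. In limma 0 of 10 passed, as did 0% of all genes, with an adjusted p of 0.997 for each of the 10. Lhx2, Lmx1a and Lmx1b, 3 of 10, had an unadjusted p below 0.05 (0.0223, 0.0267 and 0.0158), against 3.32% of all genes. The same 3 genes had both mutant values above both wild-type values, which 21.9% of all genes showed, and Isl1 and Isl2 had both below, which 15.2% showed.

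The Lmx1b difference was carried by both probes, with 1.50 for A_55_P2146295 and 1.76 for A_55_P2146297. On the second probe the mutant paraxial arrays read 12.10 and 13.67 and the wild-type ones 11.03 and 11.22, again without overlap. Lhx1 was lower in mutants on both probes. A_55_P2231244 gave -0.83 in paraxial tissue and -0.82 in neural tube, and A_52_P652336 gave -1.37 and -1.53. The Lhx9 difference was carried by 1 probe: A_55_P2117853 gave 1.97 and A_55_P2111264 gave 0.04. For Lhx9 the second mutant paraxial array read 13.41 and the first 10.22, and without the second mutant embryo the difference was 0.38.

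**Figure D4:**
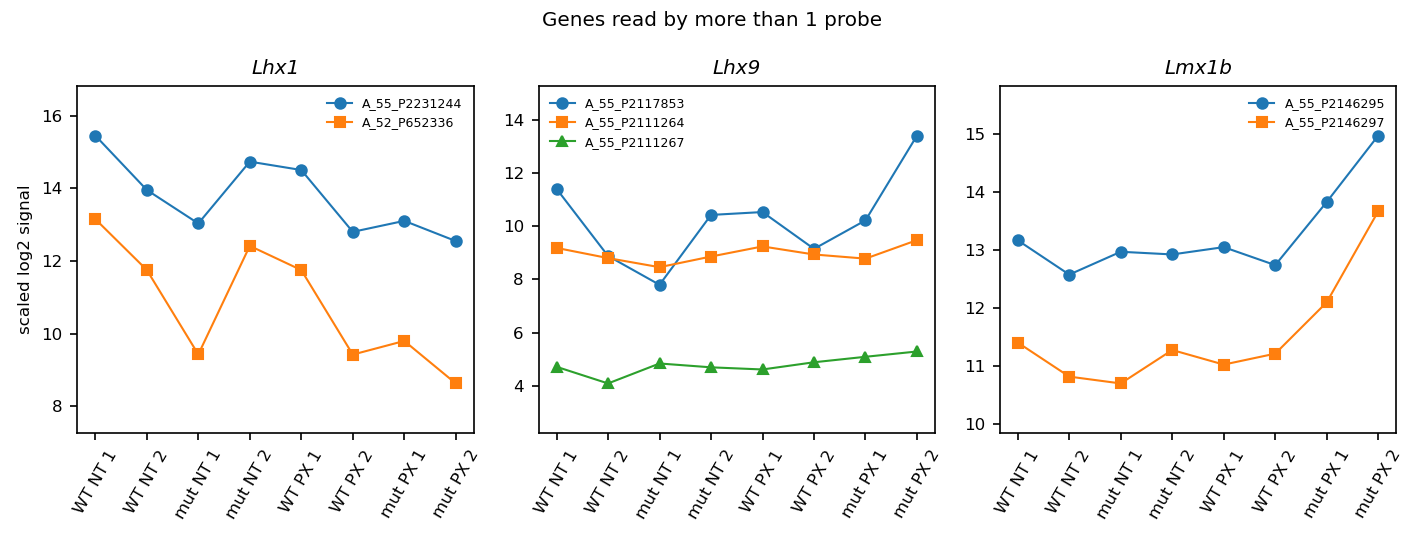
Scaled log2 signal (y axis) of every probe of Lhx1, Lhx9 and Lmx1b on the 8 arrays (x axis; WT, wild type; mut, mutant; NT, neural tube; PX, paraxial tissue; number, embryo). Lines join the values of 1 probe. Both Lmx1b probes are highest on the mutant paraxial arrays, while for Lhx9 A_55_P2117853 varies and A_55_P2111264 stays between 8.46 and 9.48.

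Marker lists of other tissues were set beside these genes, array by array. Averaged over Lhx2, Lhx9 and Lmx1b, a trio grouped after their values were seen, the deviation from the 8-array mean was -0.01 and -1.04 on the wild-type paraxial arrays and 0.31 and 2.39 on the mutant ones. Limb bud mesenchyme genes deviated by -0.18 and 0.88 in wild type and by 1.13 and 2.41 in mutants. Their summed signal was 5605 and 10987 in wild-type and 21833 and 23120 in mutant paraxial tissue, and 7 of 7 measured genes were higher in mutants (median 1.30) with 0 called. Pitx1, a hindlimb factor, differed by 2.14 ± 0.88, Prrx2 by 1.61 ± 0.64 and Fgf10, the signal of limb mesenchyme, by 1.30 ± 0.75 (limma adjusted p = 0.997 each), while the defining limb genes Tbx5 and Tbx4 did not pass the filter in any group.

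Surface ectoderm genes were higher in mutant paraxial tissue for 10 of 10 (median 1.70, 0 called), with deviations of -0.65 and -0.23 in wild type and 1.41 and 0.68 in mutants. The keratin Krt19 differed by 1.85 ± 0.54, the adhesion protein Epcam by 1.73 ± 0.43 and the claudin Cldn4 by 1.66 ± 0.48 (limma adjusted p = 0.997 each). Roof plate genes were higher for 7 of 8, with a median of 0.23. In the lists of the classes that Lhx2, Lhx9 and Lmx1b mark, 0 of 2 dI1 genes were higher and 2 lower (median -0.70), and 2 of 6 dI3 and dI5 genes were higher and 4 lower (median -0.26), with 0 called. Of the 2 dI1 genes, Atoh1 was not well above background on any paraxial array. Its difference and the dI1 median therefore rest on background signal. Between the paraxial arrays of 1 genotype the lists ran with the trio in part. On the second mutant array the limb genes and the trio were both higher than on the first, and the ectoderm genes were lower. On the second wild-type array the limb and ectoderm genes were higher than on the first, and the trio was lower. The part of the limb, ectoderm and roof plate genes in the result was not tested.

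For the genes with lower means, general neuron genes were lower in mutant paraxial tissue for 13 of 17 (median -0.93), sensory ganglion genes for 8 of 9 (median -1.27) and motor neuron genes for 7 of 10 (median -0.44), with 0 called in each list. Among these, Nhlh2, a factor of early neurons, differed by -2.12 ± 0.87 and Ntrk3, a neurotrophin receptor of sensory neurons, by -1.98 ± 0.95 (limma adjusted p = 0.997 each). The first wild-type paraxial array stood apart: general neuron genes deviated by 0.45 on it, by -0.73 on the second wild-type array and by -0.997 and -0.844 in mutants. Averaged over Isl1, Isl2, Lhx1, Lhx3, Lhx4 and Lhx5, the deviations were 0.44, -1.34, -1.28 and -1.67 on the same arrays. This mean includes Lhx5 values that were not well above background, and Lmx1a was in neither this group nor the trio. Without the first wild-type paraxial array the difference became 0.03 for Isl1 and 0.14 for Lhx4, and it remained negative for Isl2, Lhx1 and Lhx3. For Lhx5 it became -0.01, with all remaining paraxial values at background. The part of neuronal and ganglion genes in the result was not tested.

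**Figure D5:**
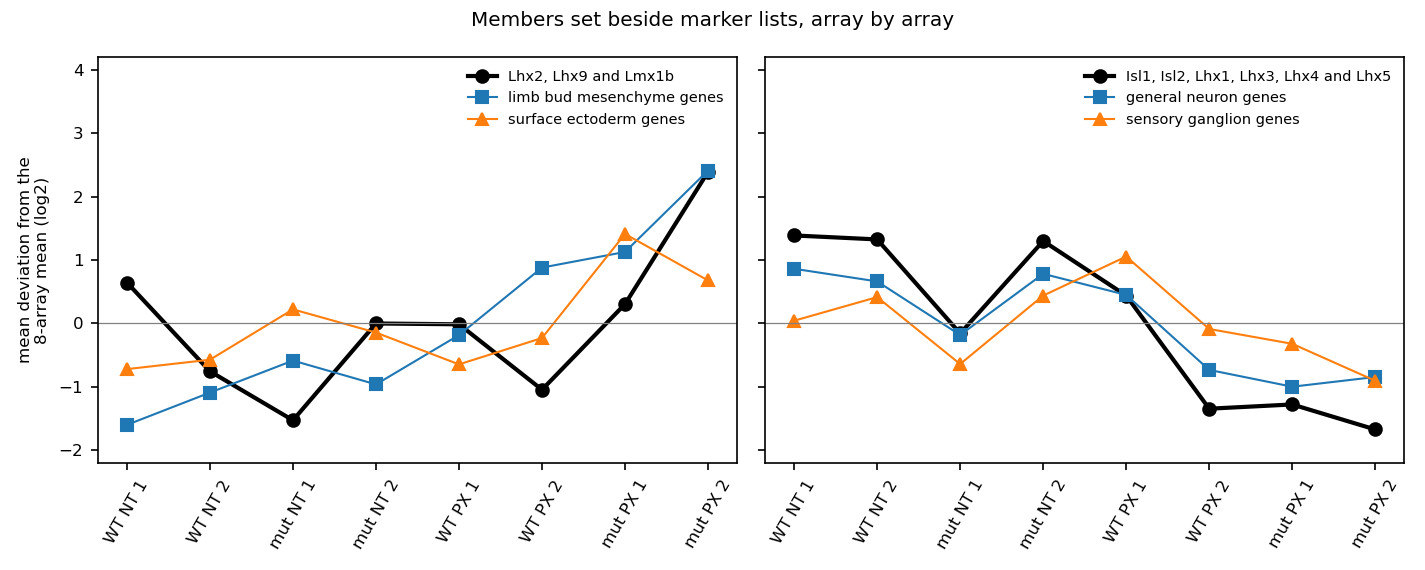
Mean deviation from the 8-array mean (log2, y axis) on each array (x axis; WT, wild type; mut, mutant; NT, neural tube; PX, paraxial tissue; number, embryo), for 2 groups of LIM-homeodomain genes and for marker lists. On the left the trio and the limb bud mesenchyme genes are highest on the second mutant paraxial array, at 2.39 and 2.41. On the right Isl1, Isl2, Lhx1, Lhx3, Lhx4 and Lhx5 and the general neuron genes are higher on the first than on the second wild-type paraxial array. Lmx1a is in neither group, and Lhx5 enters with some values at background.

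Whether the mutant difference itself differed between the tissues was tested in the same fit. Lhx2 (-3.32 ± 0.66), Lhx9 (-3.01 ± 1.02), Lmx1a (-2.02 ± 0.68) and Lmx1b (-1.43 ± 0.42) had a lower mutant difference in neural tube than in paraxial tissue, with unadjusted p of 0.0015, 0.0214, 0.0204 and 0.0120. These were 4 of 10 genes, against 5.08% of all genes, and 0 of 10 and 0% passed the adjusted threshold (limma adjusted p = 0.649 to 0.945). For the other 6 genes the values ran from -0.06 (Lhx5) to 0.58 (Lhx3), each within its standard error.

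The genes with the most similar profiles over the 8 arrays were found among 25639 genes well above background on all of them, by Pearson r and without a test, since arrays share embryos and tissues. Lhx3 was followed by Trim2 (r = 0.990) and Gadd45g (0.990), Lhx4 by Lhfpl4 (0.997) and Adgrg1 (0.995), Isl2 by Parp6 (0.996) and a locus named LOC100044108 (0.992), and Isl1 by Klhl8 (0.975) and Hdac2 (0.972). Lhx5 was followed by Taar7d (0.996) and Unc80 (0.995), Lmx1a by Camta2 (0.971) and Tuba4a (0.970), Lmx1b by Gnat1 (0.968) and Cmklr1 (0.955), and Lhx9 by Spata31d1b (0.983) and Rab20 (0.973). Lhx1 was followed by Wnt7b (0.981) and by a transcribed interval on chromosome 7 from 67001975 to 67050575 (0.982). Lhx2 was followed by Gm2273 (0.964) and by a transcribed interval on chromosome 2 from 33496712 to 33501183 (0.952), which starts just past the Lmx1b probe that ends at 33495070.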

How the data were processed

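RNA from laser-captured neural tube and paraxial tissue was labelled with Cy5 and hybridised to 1-colour Agilent arrays, 1 per sample, per the labels' protocols. The deposited intensity values are linear processed red-channel signals, made by the authors with Agilent Feature Extraction 11.0.1.1 per the submitters' processing notes, on an array annotated on mm9 per the file headers. A deposited series-wide table repeats these intensities to within 0.497%.

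From these, log2 signals were scaled on the 75th percentile of each array. The 3671 control spots and the outlier spots were left out, spots of a probe were averaged, and 42754 of 55664 probes passed the filter on dim signals; the brightest stood for each of 28940 genes. No spot of the 10 genes was saturated. Group means were fitted in limma 3.58.1 (R 4.3.3, data.table, version 1.17.8) with duplicateCorrelation on the embryo (0.601) and eBayes, and p-values were adjusted by Benjamini-Hochberg at 0.05 over all genes. Labels name the embryo of each sample, and both tissues of an embryo deviated together (r = 0.562 in wild type, 0.607 in mutants); replicate numbers were not read as pairs across genotypes. The replicate 1 and replicate 2 arrays lay in different rows of 1 slide. Whether the embryos shared a litter is not given in the sources used here.

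The members, the 18 marker lists, the tests and the alternatives were chosen with earlier results of these data known. Named genes are the 10 members, Gmnn, up to 3 genes per list with the smallest p over both genotypes, up to 2 more per mutant comparison for the neuron, motor neuron and sensory ganglion lists, and 2 genes most like each member; Tbx4, Tbx5 and the grouping of Lhx2, Lhx9 and Lmx1b fall outside this rule, and some list genes that it names are not reported here. The code was tested on simulated data. Alternatives covered scaling, normexp background correction (offset 50), the value table, filters, the mean of a gene's probes, the embryo block, the slide row, moderation, and leaving out each array or embryo. Array number and signal over background, not counting depth, limit the precision.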

Additional observations from a re-analysis of the deposited data

How the results depend on the processing

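Counts of called genes and genes' signs depended on how the embryo was treated and on single arrays; the cause was not tested. Over both genotypes 3457 genes were called, with 2284 without the filter on dim probes, 577 without the replicate block, 2010 with the embryo as a fixed replicate block, and 811 to 6467 when an array or embryo was left out. In wild type 702 genes were called, with 1486 under normexp, 358 without the filter, 1087 under trended robust moderation, 4 without the replicate block, 51 with the fixed block, 413 with the replicate number as a further replicate block, and 29 to 2660 in leave-outs. In mutants 1680 were called, with 597 without the filter, 0, 250 and 1045 under the same 3 block settings, and 0 to 3197 in leave-outs. No gene was called between mutant and wild-type neural tube; leave-outs gave 0 to 17 genes in paraxial tissue and 0 to 32 for the difference of the mutant effect.

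Of the 10 LIM-homeodomain genes, 4 were called over both genotypes, with 1 without the replicate block, 2 with the fixed block and 0 to 6 in leave-outs. In wild type the count of 0 became 2 under normexp, 1 under median scaling, the filter on all arrays and trended robust moderation, and 0 to 3 in leave-outs. In mutants the count of 4 became 0 without the filter, 0 without the replicate block, 1 with the fixed block, 1 with the replicate number, and 0 to 7 in leave-outs. In the mutant comparisons and their difference it was 0 in every setting.

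No gene of the 10 changed sign over both genotypes, but normexp moved sizes: Lhx5 from 3.08 to 1.18, Lhx3 from 2.23 to 1.56, Isl1 from 1.50 to 0.94 and Lmx1a from 1.30 to 0.41. With all arrays kept, signs turned for Lmx1a in mutants (-0.0584 under normexp), Lmx1b between genotypes in neural tube (-0.0239 for the mean of probes), and the difference of the mutant effect of Lhx5 (0.14 under quantile scaling, 0.0405 under normexp) and Lhx1 (-0.0021 under median scaling, -0.0364 under normexp, -0.0759 for the mean of probes). Leave-outs turned the tissue difference in wild type for Isl1 (-0.40 to 3.02), Lhx9 (-0.54 to 1.15) and Lmx1b (-0.23 to 0.18), and in mutants for Lhx1 (-0.0719 to 2.19) and Lmx1a (-0.61 to 1.18). They turned the mutant difference in neural tube for Isl1 (-2.45 to 0.58), Isl2 (-1.57 to 0.11), Lhx1 (-1.84 to 0.20), Lhx3 (-1.002 to 0.62), Lhx4 (-0.93 to 0.25), Lhx9 (-2.34 to 0.28), Lmx1a (-0.64 to 0.84) and Lmx1b (-0.29 to 0.44). In paraxial tissue they turned it for Isl1 (-2.84 to 0.21), Lhx1 (-1.68 to 0.0249), Lhx3 (-1.58 to 0.0358), Lhx4 (-1.45 to 0.14) and Lhx5 (-3.55 to 0.29). The difference of the mutant effect turned for Isl1 (-1.34 to 2.09), Isl2 (-0.64 to 1.06), Lhx1 (-1.12 to 1.14), Lhx3 (-0.43 to 1.59), Lhx4 (-0.48 to 1.098) and Lhx5 (-1.68 to 1.56). Where a left-out array leaves 1 in its group, the lone array is assumed to vary like the other groups. Re-estimating the embryo correlation in each leave-out (0.504 to 0.798) was added after seeing the data.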

Other observations

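In mutant neural tube, genes of other cell classes were listed beside the LIM-homeodomain genes. All 7 V2 interneuron genes had lower mutant means (median -0.91, 0 called), where 51.6% of all genes were lower. Their mean deviation from the 8-array mean was 1.27 and 0.41 in wild type and -0.80 and 0.61 in mutants. The second mutant array thus lay above the second wild-type array. On the first mutant array 4 of the 7 genes were well above background. Mnx1 was 9.01 and 10.64 in wild type and 6.02 and 8.17 in mutants (-2.73 ± 0.91), without overlap and with 6.02 not well above background. Atoh1 was 9.53 and 9.66 in wild type and 4.83 and 9.09 in mutants (-2.64 ± 1.68), again without overlap and again with the first mutant embryo at background. Floor plate genes went the other way for 5 of 6 (median 0.57, 0 called), and Shh, the floor plate signal, was 10.95 and 10.79 in wild type and 11.99 and 11.88 in mutants (1.07 ± 0.30). The limma adjusted p was 0.924 for Mnx1, Atoh1 and Shh.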
